A study of Mus musculus with 10 samples.

Results

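The genes of calcium, calcineurin and NFAT signalling were followed across bone marrow-derived dendritic cells that lacked or carried CD14. The set is a list of 31 gene symbols that covers the Src family and Syk kinases, phospholipase C gamma, IP3 receptors, store-operated calcium entry, calcium pumps, calmodulin and its kinases, calcineurin and the NFAT factors. Of these, 25 had at least 1 probe set with their symbol alone, which gave 56 of the 22690 probe sets in the table. The other 6 genes (Itpr1, Stim2, Atp2b1, Calm2, Calm3 and Lyn) were not analysed here. After a filter that asked for a scaled signal above 99.2, the median over all arrays and probe sets, on at least 2 arrays, 42 probe sets of 23 of the genes were tested among 11649 probe sets. Nfatc2 and Plcg1 did not pass: the 4 probe sets of Nfatc2 ran from 1.5 to 89.0 over the arrays, and that of Plcg1 from 1.8 to 12.8. A further probe set shared by Ppp3r1 and another gene was left out. A probe set can pass this filter through the conditions in which it is bright, so no share over the tested probe sets stands for all 31 genes.

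In immune cells, tyrosine kinases of the Src family and Syk activate phospholipase C gamma, which makes IP3, and IP3 opens release channels in the endoplasmic reticulum. When the store empties, STIM proteins open ORAI channels in the plasma membrane, calcium enters, and calmodulin switches on the phosphatase calcineurin, which strips phosphate from NFAT factors so that they enter the nucleus. SERCA pumps refill the store, and thapsigargin blocks them, which empties the store without any receptor. CD14, a surface co-receptor for LPS, is known in mouse dendritic cells to start this calcium and NFAT route independently of Tlr4. The arrays measure mRNA, and not calcium, phosphorylation or nuclear entry.

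Each of 10 arrays came from a separate condition. CD14-deficient cells (Cd14-/- C57BL/6) and wild-type cells (C57BL/6) from mice of 6 to 8 weeks were each kept as LPS with thapsigargin for 48 and 60 h, LPS alone for 48 and 60 h, and unstimulated. LPS was smooth LPS at 1 µg/ml and thapsigargin was at 50 nM. The marrow was grown with supernatant of tumour cells that secrete GM-CSF, and cultures were used when over 90% of cells carried CD11c; the number of mice behind a culture is not given in the sources used here. Unstimulated cells were harvested 24 h after plating, so exposure to LPS and the longer culture cannot be told apart in any comparison with them. No condition was repeated: the 48 and 60 h arrays stood in for replicates in a limma model with a 60 h against 48 h term and 3 residual degrees of freedom, and how precise a value can be is set by the few arrays. In bulk RNA, fewer cells of a type and less RNA per cell cannot be told apart.

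The targeted gene followed the labels: Cd14 had a signal of 1.8 to 7.4 on the 5 CD14-deficient arrays, below the floor of 13.4 set for all signals, against 1499 in unstimulated and 15538 to 17729 in stimulated wild-type cells. All 13 dendritic cell markers were above the filter's median on some array, and their summed signal ran from 40670 to 72730, but 3 of their 19 tested probe sets fell with LPS in wild-type cells and 2 rose. Among those that fell were Clec10a, a lectin, by a log2 change of -3.55 ± 0.57 (SE, limma, adjusted p = 0.016), and Cd209a, another lectin, by -3.26 ± 0.68 (adjusted p = 0.0321). Irf8 was among those that rose, by 2.17 ± 0.28 (adjusted p = 0.0108). Over all tested probe sets 8.52% were lower and 6.39% higher in that comparison. Itgax, which encodes CD11c, had 2921 and 1002 with LPS against 7440 unstimulated in wild-type cells. In CD14-deficient cells it had 892 and 6941 with LPS against 7838 unstimulated. Of 8 neutrophil markers with a probe set, 4 never passed that median and Cxcr2 was under the floor throughout, and the sum was 673 to 774 with thapsigargin, 1812 to 2270 with LPS alone, and 10620 in CD14-deficient cells and 8864 in wild-type unstimulated cells. Of 11 macrophage markers, Cd163 was under the floor throughout, and the sum was 15130 to 19720 with thapsigargin, 9810 to 32980 with LPS alone and 39720 to 44960 unstimulated. Mast cell and basophil markers (Ms4a2 under the floor throughout) summed to 475 to 2678, B cell markers to 98.2 to 600.4, and T and NK cell markers (Cd4 and Ncr1 under the floor throughout) to 36.2 to 133.6. With LPS in wild-type cells, 3 of 4 tested neutrophil probe sets and 6 of 16 tested macrophage probe sets fell, where 8.52% of all did. Markers of both lists also went the other way there: Adgre1 (macrophage) had 8473 and 7815 with LPS against 2696 unstimulated, and Camp (neutrophil) 118 and 122 against 51.8. Under LPS, 2 of 19 dendritic cell probe sets (Flt3 and Irf4) were higher in CD14-deficient than wild-type cells. Of 16 macrophage probe sets 1 (Adgre1) was lower. Over all tested probe sets 2.23% were higher and 2.55% lower there. With thapsigargin in CD14-deficient cells 1 dendritic cell probe set rose and 1 fell, and 2 of 4 neutrophil probe sets fell. Of all tested probe sets 3.68% rose and 3.03% fell there. The part of these marker changes in the results was not tested.

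A pair of arrays stood apart. The 3 control probe sets of 18S ribosomal RNA gave 114 to 384.7 on the CD14-deficient LPS 48 h array and 217 to 685 on the wild-type LPS 60 h array, against 1426 to 12656 on the other arrays. The CD14-deficient LPS 48 h array also had the lowest macrophage sum and the highest B cell sum. From 48 to 60 h, 17.97% of tested probe sets moved 2-fold in CD14-deficient cells with LPS and 8.13% in wild-type cells with LPS, against 2.65% and 1.71% with thapsigargin. Results are therefore also given without both arrays, which leaves 1 array in each LPS group and 1 residual degree of freedom. The spread in that fit comes from the thapsigargin arrays alone, and each lone LPS array is assumed to vary like them. Counts of calls for comparisons with LPS alone describe single arrays in that fit, and no conclusion is drawn from them. The LPS arrays left are the CD14-deficient 60 h and the wild-type 48 h array. The genotypes under LPS are then compared at unlike times, and the time term rests on the thapsigargin arrays alone. The share of all tested probe sets called was higher in that fit in each of the 6 comparisons.

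Under LPS, 7 of the genes fell in wild-type cells and 1 rose. Of 42 probe sets, 9 were lower and 1 higher than in unstimulated cells at an adjusted p under 0.05 (limma, Benjamini-Hochberg over all tested probe sets), where 8.52% of all tested probe sets were lower and 6.39% higher. Counts of members are counts of these probe sets. The lower calls fell in Fgr, Plcg2, Nfatc1, Camk1, Camk2g, Camkk2 and Atp2a2, and the higher call in Syk. By the brightest probe set of each gene, 5 of 23 genes were lower and 0 higher. The median log2 change was -0.58 over the members and -0.09 over all tested probe sets. Without both low-18S arrays, on 1 array a side, the log2 change was -3.46 for Fgr and 1.66 for Syk (1418262_at).

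In CD14-deficient cells the LPS response held 1 call, a fall of Fgr, where 1.39% of all tested probe sets were lower and 1.55% higher. The median log2 change was -0.19 over the members and -0.03 over all tested probe sets. The difference of the LPS response between genotypes was tested as an interaction: 0 members and 0.00% of all tested probe sets passed in limma, while 3 members and 976 probe sets of all had an unadjusted p under 0.05. Without both low-18S arrays, the CD14-deficient response rests on the 60 h array alone, set against 1 unstimulated array.

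Set against wild-type cells under the same LPS, CD14-deficient cells were higher for Camkk2 and Ppp3r1 and lower for 0 members, where 2.23% of all tested probe sets were higher and 2.55% lower. The log2 difference was above 0 for 33 of the 42 probe sets, with a median of 0.49, against 0.07 over all tested probe sets. At least 2-fold at both times, Fgr, Camkk2 and Atp2a2 were each higher by 1 probe set and 0 were lower, where 3.17% of all were higher and 2.50% lower. Without both low-18S arrays, 11 members were higher and 0 lower, where 22.3% of all tested probe sets were called in either direction. That fit sets the CD14-deficient 60 h array against the wild-type 48 h array, so these counts cannot check the genotype difference. Before stimulation the genotypes differed by a log2 of -0.64 to 0.40 over the members, and 0 of 42 reached 2-fold. Of all tested probe sets 1.44% did in that pair of arrays, which has no replicate check.

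Thapsigargin with LPS, set against LPS alone, lowered Fgr and Camkk2 in CD14-deficient cells and raised 0 members, where 3.03% of all tested probe sets were lower and 3.68% higher. At least 2-fold at both times, 4 probe sets of Fgr, Camkk2 and Itpr2 were lower and 0 higher, where 4.26% of all were lower and 3.31% higher. For thapsigargin in wild-type cells, limma called 0 members and 0.00% of all tested probe sets, with 7 members and 1096 probe sets of all at an unadjusted p under 0.05. At least 2-fold at both times there, Atp2a3 was higher, where 0.944% of all were, and Fgr and Src were lower, where 1.57% of all were. The median log2 change with thapsigargin was -0.23 over the members and 0.005 over all tested probe sets in CD14-deficient cells, and 0.16 over the members and 0.09 over all in wild-type cells. The difference between genotypes in the thapsigargin effect passed for 0 members and 0.00% of all in limma, with 6 members and 1588 probe sets of all at an unadjusted p under 0.05. Without both low-18S arrays, 1 array with LPS alone is left for each genotype, at 60 h in CD14-deficient cells and at 48 h in wild-type cells.

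With thapsigargin present, few probe sets separated CD14-deficient from wild-type cells. In limma 0 members passed, where 0.0258% of all tested probe sets did, with 1 member and 446 probe sets of all at an unadjusted p under 0.05. The median log2 difference was -0.02 over the members and -0.02 over all. At least 2-fold at both times, 0 members differed, against 0.919% of all in either direction. Without both low-18S arrays 0 members passed as well, where 4.52% of all did. The comparisons against LPS alone share those LPS arrays, and the comparisons with unstimulated cells share 1 array for each genotype.

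**Figure D1:**
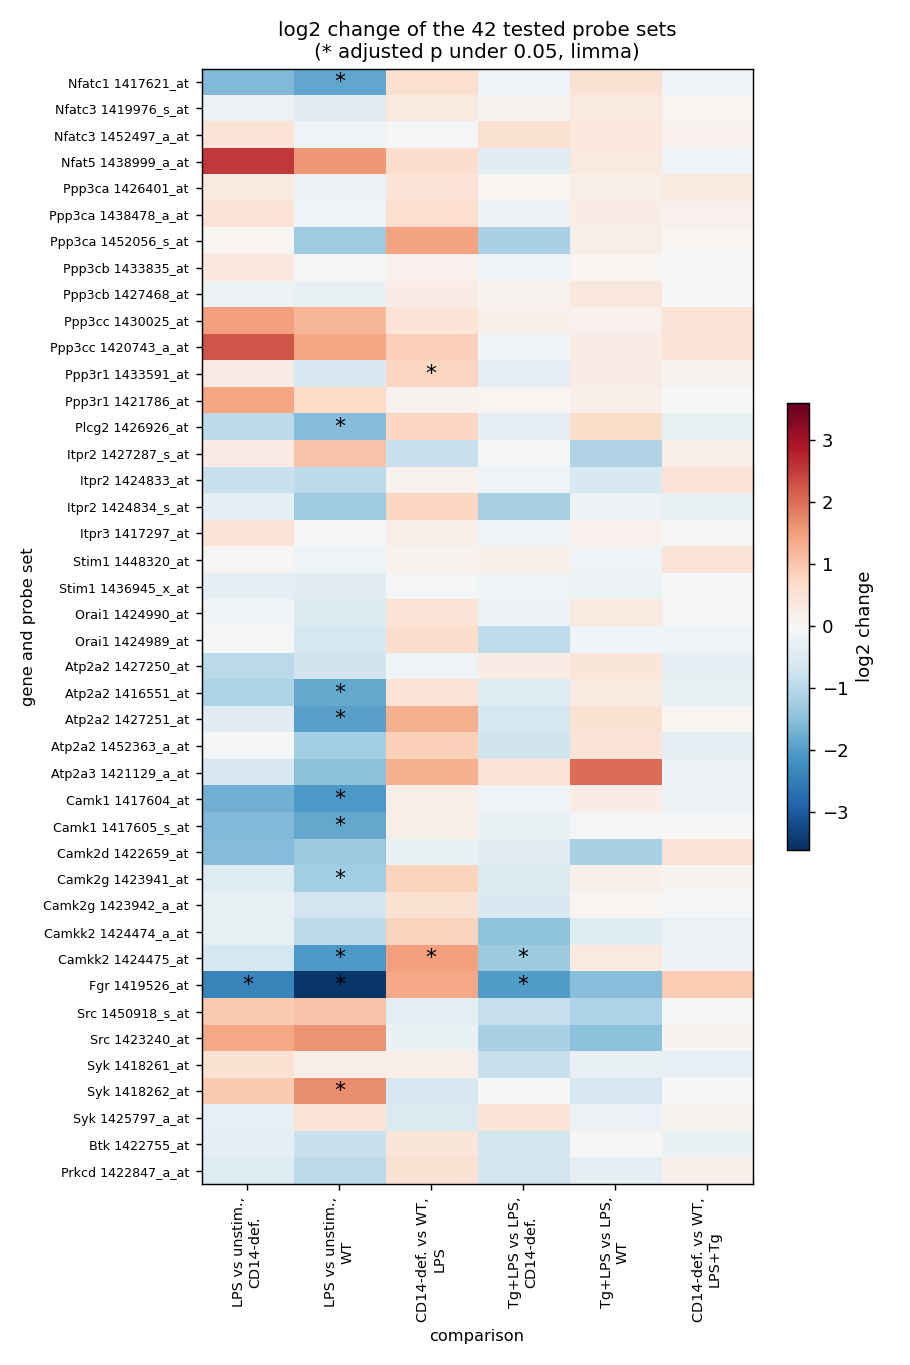
The log2 change of each of the 42 tested probe sets (rows, by role) in 6 comparisons (columns), with red for higher and blue for lower in the group named first and an asterisk for an adjusted p under 0.05 in limma. Most asterisks, 10, stand in the LPS response of wild-type cells, and Fgr has the darkest cell, at -3.51.

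Fgr, a Src family kinase of myeloid cells, gave the largest change of any member. Its signal at 48 and 60 h was 52.0 and 40.0 in CD14-deficient cells and 22.9 and 25.4 in wild-type cells with LPS and thapsigargin, 162 and 213 in CD14-deficient cells and 71.9 and 68.6 in wild-type cells with LPS alone, and 966 in CD14-deficient cells and 793 in wild-type unstimulated cells. The 3 treatments did not overlap, and within each of them the CD14-deficient arrays were above the wild-type arrays. Only the unstimulated and the CD14-deficient LPS arrays were above 99.2, so Fgr passed the filter through the conditions in which it is bright. The log2 change with LPS was -2.39 ± 0.36 (SE) in CD14-deficient cells (adjusted p = 0.0374) and -3.51 ± 0.36 in wild-type cells (adjusted p = 0.00688). Thapsigargin lowered Fgr further in CD14-deficient cells, by a log2 change of -2.02 ± 0.29 (adjusted p = 0.0232), and the change of -1.54 ± 0.29 in wild-type cells did not pass (adjusted p = 0.218), though it was past 2-fold at both times. The genotypes under LPS alone differed by 1.40 ± 0.29 (adjusted p = 0.0535), which did not pass.

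Src, the founding member of that family, moved the other way with LPS, as the plot of kinase signals shows. Its probe set 1423240_at had 94.7 and 83.0 in CD14-deficient cells and 77.3 and 89.5 in wild-type cells with thapsigargin, 174 and 224 in CD14-deficient cells and 171 and 319 in wild-type cells with LPS alone, and 67.8 in CD14-deficient cells and 68.2 in wild-type unstimulated cells. All 4 arrays with LPS alone were above the other 6. The log2 change with LPS was 1.38 ± 0.41 in CD14-deficient (adjusted p = 0.127) and 1.61 ± 0.41 in wild-type cells (adjusted p = 0.0504), so neither passed. That with thapsigargin was -1.16 ± 0.32 in CD14-deficient (adjusted p = 0.0827) and -1.49 ± 0.32 in wild-type cells (adjusted p = 0.267), and the brighter Src probe set had the same signs and passed in neither.

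Syk, the kinase that couples immune receptors to phospholipase C gamma, had 3 probe sets that differed. At 1418262_at the signal was 1403 and 954 in CD14-deficient cells and 1186 and 1143 in wild-type cells with thapsigargin, 1081 and 1230.0 in CD14-deficient cells and 1827 and 1631 in wild-type cells with LPS alone, and 636.5 in CD14-deficient cells and 576 in wild-type unstimulated cells. Every stimulated array was above both unstimulated arrays. The log2 change with LPS was 0.93 ± 0.28 in CD14-deficient cells (adjusted p = 0.131) and 1.66 ± 0.28 in wild-type cells (adjusted p = 0.0188). The brightest Syk probe set gave 0.55 ± 0.23 in CD14-deficient cells and 0.22 ± 0.23 in wild-type cells and did not pass in either (adjusted p = 0.228 and 0.553 in that order), so the rise rests on 1 probe set, and the third passed in no comparison. The remaining members of the group did not pass in any comparison. Btk, a Tec family kinase that also activates phospholipase C gamma, ran from 370 to 754 over the 10 arrays, and Prkcd, a protein kinase C that responds to diacylglycerol, from 1453 to 3598. Both were highest in the unstimulated cells, and their lowest arrays had thapsigargin.

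Plcg2, the phospholipase C gamma of myeloid and B cells, fell with LPS in wild-type cells. Its signal was 685 and 724 in CD14-deficient cells and 812 and 878 in wild-type cells with thapsigargin, 869.5 and 935 in CD14-deficient cells and 525 and 554 in wild-type cells with LPS alone, and 1666 in CD14-deficient cells and 1540.0 in wild-type unstimulated cells. The wild-type LPS arrays were the lowest of all 10. The log2 change with LPS was -0.93 ± 0.21 in CD14-deficient cells (adjusted p = 0.0734) and -1.56 ± 0.21 in wild-type cells (adjusted p = 0.0116), and CD14-deficient cells with LPS were above wild-type cells by 0.74 ± 0.16 (adjusted p = 0.0609). Thapsigargin gave -0.36 ± 0.16 in CD14-deficient cells and 0.65 ± 0.16 in wild-type cells, neither of which passed (adjusted p = 0.212 and 0.336 in that order).

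The promoters of Fgr, Plcg2 and Src are shown as examples. Fgr had the largest fall with LPS, and Plcg2 a negative change in both genotypes that passed in wild-type cells only. Src had positive changes with LPS that did not pass. Each sequence is the 250 bases before the RefSeq gene start in GRCm38.p6, 5′ to 3′ on the strand of the gene, which is the plus strand for each. Fgr lies at chr4:132973845-132974094, Plcg2 at chr8:117498025-117498274 and Src at chr2:157424043-157424292. Capitals mark GGAAA, the core bound by NFAT, or GAGGAA, the core bound by the myeloid factor PU.1, on either strand (TTTCC and TTCCTC on the strand shown); the letters overlap where GAGGAAA occurs.
Fgr: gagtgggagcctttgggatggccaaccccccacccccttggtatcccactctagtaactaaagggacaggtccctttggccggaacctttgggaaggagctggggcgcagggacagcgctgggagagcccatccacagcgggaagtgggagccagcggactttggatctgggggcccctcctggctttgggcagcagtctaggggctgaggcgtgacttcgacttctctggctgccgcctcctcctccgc
Plcg2: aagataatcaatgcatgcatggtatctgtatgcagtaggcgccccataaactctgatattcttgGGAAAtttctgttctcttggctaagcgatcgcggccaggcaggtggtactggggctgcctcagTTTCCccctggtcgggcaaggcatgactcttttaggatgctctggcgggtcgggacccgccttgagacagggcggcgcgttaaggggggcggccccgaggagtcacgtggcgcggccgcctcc
Src: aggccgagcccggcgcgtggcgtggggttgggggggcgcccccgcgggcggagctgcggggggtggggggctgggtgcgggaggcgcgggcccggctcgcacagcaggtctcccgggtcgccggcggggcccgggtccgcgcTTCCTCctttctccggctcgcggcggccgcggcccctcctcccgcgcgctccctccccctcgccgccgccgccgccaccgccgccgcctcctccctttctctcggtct

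The Plcg2 window held GGAAA at 2 places, the Src window held GAGGAA at 1 place, and the Fgr window held neither. Promoter entries were matched for 23 of the 31 genes, as 28 promoters. GGAAA occurred in 11 of the 28 (39.3%) and in 55.6% of 32851 mouse promoters of that length, and GAGGAA in 6 of the 28 (21.4%) and in 23.3% of all. A match describes letters in the window, and a window without one says nothing of the factor.

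**Figure D2:**
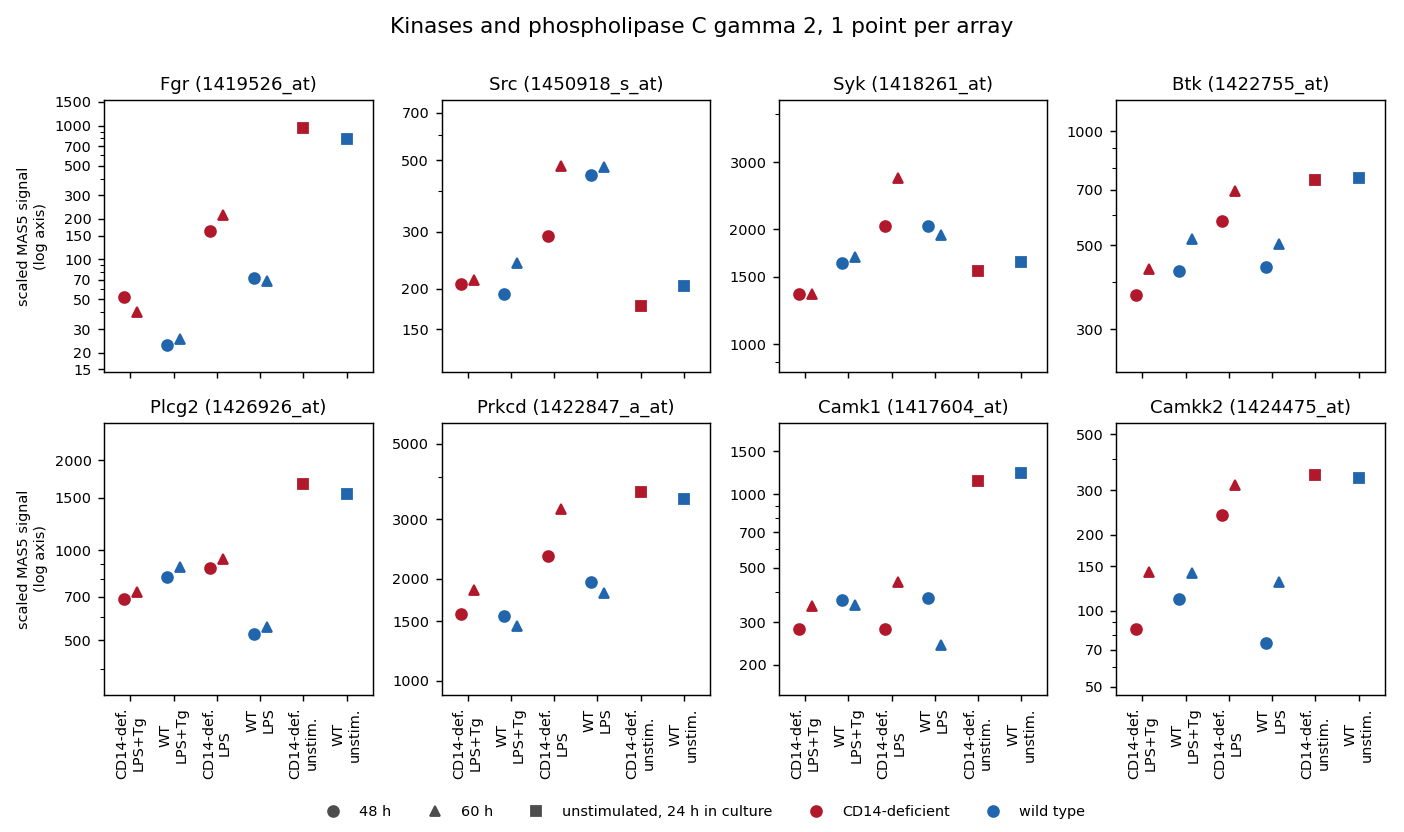
Scaled MAS5 signal (log axis) of the tyrosine kinases, Prkcd, Plcg2, Camk1 and Camkk2 by condition, with 1 point for each array, circles for 48 h, triangles for 60 h and squares for unstimulated cells. Fgr runs from 22.9 to 966, with the thapsigargin arrays lowest and the unstimulated arrays highest, and Src is highest on arrays with LPS alone.

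Among calcium release channels, Itpr2 was read by 3 tested probe sets that disagreed in sign. The brightest, 1427287_s_at, had 325 and 276 in CD14-deficient cells and 305 and 227.5 in wild-type cells with thapsigargin, 220.3 and 454 in CD14-deficient cells and 753 and 408 in wild-type cells with LPS alone, and 272 in CD14-deficient cells and 282.5 in wild-type unstimulated cells. The probe set 1424834_s_at had 52.9 and 51.9 in CD14-deficient cells and 66.3 and 59.9 in wild-type cells with thapsigargin, 118 and 122 in CD14-deficient cells and 55.5 and 92.4 in wild-type cells with LPS alone, and 145 in CD14-deficient cells and 165 in wild-type unstimulated cells. In CD14-deficient cells the change with thapsigargin was -0.08 ± 0.45 at the first (adjusted p = 0.925) and -1.19 ± 0.32 at the second (adjusted p = 0.0766), which was past 2-fold at both times but did not pass the test. Itpr3, the other IP3 receptor measured, stayed between 94.6 and 142, and no comparison passed.

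For store-operated entry, neither the store sensor Stim1 nor the channel Orai1 passed in any comparison. The brightest Stim1 probe set ran from 183 to 286 over the arrays and that of Orai1 from 654 to 1165. Over their 4 probe sets the log2 change with LPS was -0.31 to 0.03 in CD14-deficient cells and -0.62 to -0.16 in wild-type cells, and that with thapsigargin was -0.92 to 0.18 in CD14-deficient cells and -0.18 to 0.36 in wild-type cells. The highest Orai1 array, 1165, was the CD14-deficient LPS 48 h array with low 18S signal.

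The SERCA pumps are the targets of thapsigargin. Atp2a3, which encodes SERCA3, the form of blood cells, had 488 and 486 in CD14-deficient cells and 429 and 722 in wild-type cells with thapsigargin, 426 and 271 in CD14-deficient cells and 125 and 153 in wild-type cells with LPS alone, and 493 in CD14-deficient cells and 374 in wild-type unstimulated cells. The wild-type LPS arrays were the lowest of the 10, and both wild-type thapsigargin arrays were above the wild-type unstimulated array. In wild-type cells the log2 change was -1.48 ± 0.44 with LPS (adjusted p = 0.0757) and 2.01 ± 0.35 with thapsigargin (adjusted p = 0.207), and neither passed. In CD14-deficient cells the same changes were -0.58 ± 0.44 (adjusted p = 0.473) and 0.52 ± 0.35 (adjusted p = 0.372), and CD14-deficient cells with LPS were above wild-type cells by 1.30 ± 0.35 (adjusted p = 0.0859).

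Atp2a2, which encodes the widely expressed SERCA2, was read by 4 probe sets, all with a negative log2 change under LPS in both genotypes. The brightest, 1427250_at, had 2917 and 2998 in CD14-deficient cells and 3847 and 3525 in wild-type cells with thapsigargin, 1765.5 and 3371 in CD14-deficient cells and 2339 and 3159.5 in wild-type cells with LPS alone, and 4254 in CD14-deficient cells and 3967 in wild-type unstimulated cells. Its lowest array was the CD14-deficient LPS 48 h array, and its change with LPS, -0.96 ± 0.35 in CD14-deficient cells and -0.71 ± 0.35 in wild-type cells, did not pass (adjusted p = 0.176 and 0.216 in that order). The dimmer 1416551_at had 225 and 299 in CD14-deficient cells and 321 and 296 in wild-type cells with thapsigargin, 272 and 477 in CD14-deficient cells and 202 and 307 in wild-type cells with LPS alone, and 665 in CD14-deficient cells and 773 in wild-type unstimulated cells. It fell with LPS in wild-type cells by a log2 change of -1.85 ± 0.35 (adjusted p = 0.0241), as did 1427251_at, by -1.95 ± 0.47 (adjusted p = 0.0459). That last probe set had 127 and 185 in CD14-deficient cells and 44.0 and 90.5 in wild-type cells with LPS alone, a difference of 1.28 ± 0.37 (adjusted p = 0.0975) that was 2-fold at both times. At the same time of 48 or 60 h the difference was 1.53 or 1.03. Fitted without both low-18S arrays it was 2.19, which sets the CD14-deficient 60 h array against the wild-type 48 h array. The call for Atp2a2 thus depends on which of its probe sets is read.

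**Figure D3:**
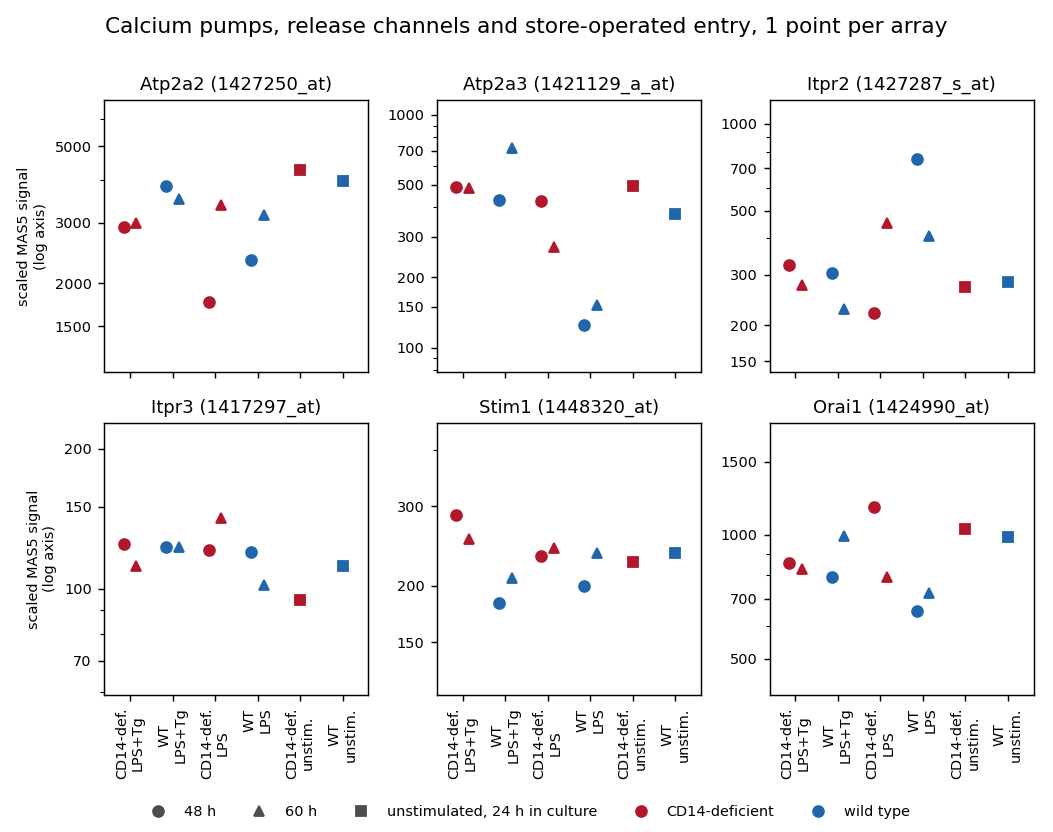
Scaled MAS5 signal (log axis) of the brightest probe set of the SERCA pumps, IP3 receptors, Stim1 and Orai1 by condition, with 1 point for each array, circles for 48 h, triangles for 60 h and squares for unstimulated cells. Atp2a3 is lowest in wild-type cells with LPS alone, at 125 and 153, and is at 429 and 722 in those given thapsigargin.

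Of the kinases switched on by calmodulin, 4 of 7 probe sets, from 3 of 4 genes, fell with LPS in wild-type cells, where 8.52% of all tested probe sets did, and the other 3 did not pass. Camk1, calmodulin-dependent kinase I, had 281.5 and 350.1 in CD14-deficient cells and 368 and 353.5 in wild-type cells with thapsigargin, 281 and 436 in CD14-deficient cells and 375 and 241 in wild-type cells with LPS alone, and 1137 in CD14-deficient cells and 1224.5 in wild-type unstimulated cells. All stimulated arrays were far below the unstimulated ones, with no order by genotype. Its log2 change with LPS was -1.73 ± 0.42 in CD14-deficient cells (adjusted p = 0.0868) and -2.06 ± 0.42 in wild-type cells (adjusted p = 0.0296), and its other probe set gave -1.58 ± 0.31 (adjusted p = 0.0594) and -1.85 ± 0.31 (adjusted p = 0.0183) in that order.

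Camkk2, the kinase that activates Camk1 and AMPK, differed between the genotypes under LPS. At 1424475_at the signal was 84.9 and 142 in CD14-deficient cells and 111 and 141 in wild-type cells with thapsigargin, 238.5 and 315 in CD14-deficient cells and 74.1 and 129.5 in wild-type cells with LPS alone, and 347 in CD14-deficient cells and 335 in wild-type unstimulated cells. The CD14-deficient LPS arrays lay between the unstimulated arrays and all the other stimulated arrays. CD14-deficient cells with LPS were above wild-type cells by 1.49 ± 0.24 (adjusted p = 0.0357). LPS gave -0.63 ± 0.31 in CD14-deficient (adjusted p = 0.284) and -2.06 ± 0.31 in wild-type cells (adjusted p = 0.0143), a difference of responses that did not pass (adjusted p = 0.528). Thapsigargin lowered it in CD14-deficient cells, by -1.32 ± 0.24 (adjusted p = 0.0342), and gave 0.36 ± 0.24 in wild-type cells (adjusted p = 0.677).

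The brighter Camkk2 probe set, 1424474_a_at, shared the signs except for thapsigargin in wild-type cells and passed in no comparison. It had 149 and 190.1 in CD14-deficient cells and 203 and 187 in wild-type cells with thapsigargin, 388 and 546 in CD14-deficient cells and 332 and 212.5 in wild-type cells with LPS alone, and 552 in CD14-deficient cells and 506 in wild-type unstimulated cells. Its change with thapsigargin in CD14-deficient cells was -1.45 ± 0.32 (adjusted p = 0.0535), and its genotype difference under LPS was 0.79 ± 0.32 (adjusted p = 0.182).

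Camk2g, a calmodulin-dependent kinase II subunit, had 432 and 389 in CD14-deficient cells and 353.5 and 411 in wild-type cells with thapsigargin, 495.5 and 712 in CD14-deficient cells and 321 and 357 in wild-type cells with LPS alone, and 764 in CD14-deficient cells and 756.5 in wild-type unstimulated cells. Both CD14-deficient LPS arrays were above both wild-type LPS arrays. It fell with LPS in wild-type cells by a log2 change of -1.25 ± 0.28 (adjusted p = 0.0396), against -0.46 ± 0.28 in CD14-deficient cells (adjusted p = 0.386), and its other probe set did not pass. Camk2d, another subunit of that kinase, ran from 24.3 to 169.9, was highest on both unstimulated arrays, and passed in no comparison.

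Calcineurin was called in 1 comparison, between the genotypes under LPS. The group has the catalytic subunits Ppp3ca, Ppp3cb and Ppp3cc and the calcium-binding regulatory subunit Ppp3r1, and its 9 tested probe sets held 1 call over all 6 comparisons. Ppp3r1 (1433591_at) had 2107 and 2425 in CD14-deficient cells and 1923 and 2178 in wild-type cells with thapsigargin, 2949 and 2840.0 in CD14-deficient cells and 1576 and 1799 in wild-type cells with LPS alone, and 2250.0 in CD14-deficient cells and 2336 in wild-type unstimulated cells. The CD14-deficient LPS arrays were the highest and the wild-type LPS arrays the lowest of all 10. CD14-deficient cells with LPS were above wild-type cells by 0.78 ± 0.15 (adjusted p = 0.0492). That call was lost under 11 of 18 alternatives, with differences of 0.66 to 0.90 and an adjusted p of 0.00335 to 0.283 over all 18. The other Ppp3r1 probe set had 308 and 184 in CD14-deficient cells and 202 and 235 in wild-type cells with LPS alone, which overlapped, and a difference of 0.12 ± 0.29 (adjusted p = 0.811).

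For the catalytic subunits, the brightest probe set ran from 849 to 1688 for Ppp3ca, from 684.5 to 1091 for Ppp3cb and from 76.9 to 349.5 for Ppp3cc. At the dimmer Ppp3ca probe set 1452056_s_at, CD14-deficient cells with LPS were above wild-type cells by 1.44 ± 0.35 (adjusted p = 0.0715). Its change with thapsigargin in CD14-deficient cells was -1.16 ± 0.35 (adjusted p = 0.0976), against 0.07 ± 0.26 at the brightest (adjusted p = 0.892), and none of these passed. Both Ppp3cc probe sets were lowest on the unstimulated arrays, with log2 changes under LPS of 1.49 and 2.26 in CD14-deficient cells and 1.19 and 1.43 in wild-type cells that did not pass (adjusted p of 0.106 to 0.210). Of the 9 calcineurin probe sets, 8 had their highest signal among the 8 stimulated arrays on the CD14-deficient LPS 48 h array, the array with low 18S signal. Over all 42 member probe sets 12 peaked there, against 26.7% of all tested probe sets, 18 peaked on the CD14-deficient LPS 60 h array, against 17.7% of all, and 18 were lowest on the wild-type LPS 48 h array, against 21.4% of all. The part of the low-18S array in the level of calcineurin was not tested.

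Of the NFAT factors, Nfatc1 alone passed a test. Its signal (1417621_at) was 163 and 191 in CD14-deficient cells and 182 and 202 in wild-type cells with thapsigargin, 197 and 194 in CD14-deficient cells and 111 and 156 in wild-type cells with LPS alone, and 545 in CD14-deficient cells and 448 in wild-type unstimulated cells. All stimulated arrays were below both unstimulated ones, and the wild-type LPS arrays were the lowest. The log2 change with LPS was -1.59 ± 0.29 in CD14-deficient cells (adjusted p = 0.0517) and -1.87 ± 0.29 in wild-type cells (adjusted p = 0.0151), and thapsigargin gave -0.15 ± 0.23 in CD14-deficient (adjusted p = 0.700) and 0.54 ± 0.23 in wild-type cells (adjusted p = 0.538).

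Nfatc3, which with Nfatc2 is among the calcineurin-regulated factors, ran from 289 to 531 at its brightest probe set and passed in no comparison. Nfat5, which answers to osmotic stress and not to calcineurin, had 746 and 592 in CD14-deficient cells and 821.5 and 661 in wild-type cells with thapsigargin, 1534 and 519 in CD14-deficient cells and 349 and 970.3 in wild-type cells with LPS alone, and 164 in CD14-deficient cells and 211 in wild-type unstimulated cells. Every stimulated array was above both unstimulated arrays. The 48 and 60 h arrays with LPS alone went opposite ways in the genotypes, and the log2 change of 2.54 ± 0.83 in CD14-deficient cells and 1.55 ± 0.83 in wild-type cells did not pass (adjusted p = 0.151 and 0.251 in that order).

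**Figure D4:**
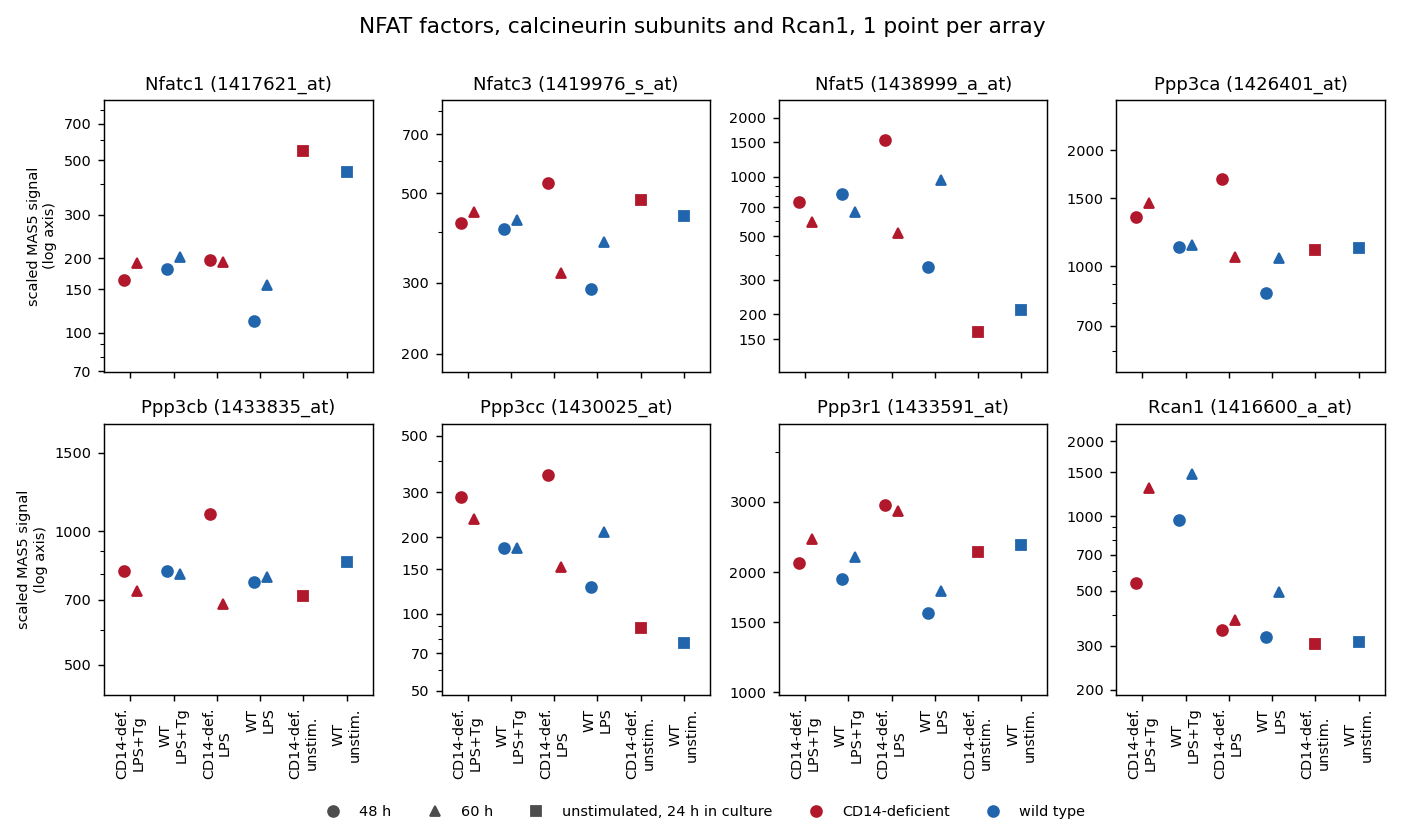
Scaled MAS5 signal (log axis) of the NFAT factors, the calcineurin subunits and Rcan1 by condition, with 1 point for each array, circles for 48 h, triangles for 60 h and squares for unstimulated cells. Nfatc1 is at 545 and 448 in unstimulated cells and at most 202 on stimulated arrays, and all 4 arrays with thapsigargin have Rcan1 at 539.7 or more, against at most 494 elsewhere.

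Rcan1, a calcineurin inhibitor that NFAT itself switches on, was read as a neighbour of the set. Its signal was 539.7 and 1297 in CD14-deficient cells and 966 and 1476 in wild-type cells with thapsigargin, 346 and 380 in CD14-deficient cells and 327 and 494 in wild-type cells with LPS alone, and 304.5 in CD14-deficient cells and 310 in wild-type unstimulated cells. The 4 thapsigargin arrays were above all the others. The log2 change with thapsigargin was 1.21 ± 0.29 in CD14-deficient (adjusted p = 0.0629) and 1.57 ± 0.29 in wild-type cells (adjusted p = 0.217), so neither passed, and that with LPS was -0.07 ± 0.37 in CD14-deficient (adjusted p = 0.922) and 0.05 ± 0.37 in wild-type cells (adjusted p = 0.936). Over all tested probe sets 6.39% were higher under LPS in wild-type cells and 3.68% under thapsigargin in CD14-deficient cells. Among 26 probe sets of 13 NFAT regulators, 1 passed, higher, in both of these comparisons, and 0 in the other 4 comparisons. It was a probe set of Csnk1d, a casein kinase 1, with 1621 and 1865 in CD14-deficient cells with thapsigargin against 710.1 and 622 with LPS alone, while the brightest of the 5 Csnk1d probe sets was not called.

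Other genes of the route were read as lists. Over all tested probe sets, 8.52% were lower and 6.39% higher with LPS in wild-type cells. In CD14-deficient cells 1.39% were lower and 1.55% higher with LPS, and 3.03% lower and 3.68% higher with thapsigargin. CD14-deficient cells were higher than wild-type cells under LPS for 2.23% and lower for 2.55%. These shares apply to each list below. Among 13 probe sets of 8 further channels and pumps, 3 fell with LPS in wild-type cells (Ryr1, Tpcn1 and Atp2c1), 1 was higher in CD14-deficient than wild-type cells under LPS and 1 fell with thapsigargin in CD14-deficient cells. The last 2 calls were both Tpcn1, an endolysosomal channel, with 55.6 and 54.4 in CD14-deficient cells and 28.2 and 66.1 in wild-type cells with thapsigargin, 263.5 and 255.5 in CD14-deficient cells and 62.7 and 73.4 in wild-type cells with LPS alone, and 312 in CD14-deficient cells and 296 in wild-type unstimulated cells. Like the dimmer Camkk2 probe set, 1424475_at, Tpcn1 was low on every stimulated array except those of CD14-deficient cells with LPS alone. Tpcn1 was above 99.2 only on those and the unstimulated arrays, and passed the filter through them. Its genotype difference under LPS was 1.94 ± 0.38 (adjusted p = 0.0496).

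Among 11 probe sets of 9 further phospholipases and kinases, 3 fell and 2 rose with LPS in wild-type cells, 1 rose with LPS in CD14-deficient cells, 1 was higher in CD14-deficient cells under LPS and 1 fell with thapsigargin in those cells. Camk1d, a relative of Camk1, had the last 2 calls, with a genotype difference of 1.78 ± 0.28 (adjusted p = 0.0340) and a thapsigargin change of -1.36 ± 0.28 (adjusted p = 0.0467). Among 31 probe sets of 20 proximal signalling genes, 7 fell and 1 rose with LPS in wild-type cells, 1 fell with LPS in CD14-deficient cells, 2 were higher in CD14-deficient cells under LPS and 2 fell with thapsigargin in those cells. Ptpn6, the phosphatase SHP-1 that restrains Src family and Syk signalling, fell with LPS by -1.28 ± 0.22 in CD14-deficient (adjusted p = 0.0434) and by -2.47 ± 0.22 in wild-type cells (adjusted p = 0.00496), with a genotype difference of 1.07 ± 0.17 under LPS (adjusted p = 0.0356). For these 3 lists, 0 probe sets passed for thapsigargin in wild-type cells or between genotypes with thapsigargin. Of all tested probe sets, 0.00% and 0.0258% passed in that order.

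Genes named as NFAT targets (14 probe sets of 10 genes) showed 6 higher and 3 lower with LPS in wild-type cells, 1 higher in CD14-deficient cells, 1 higher and 3 lower in CD14-deficient than wild-type cells under LPS, and 2 higher and 2 lower with thapsigargin in CD14-deficient cells. Ptges, the prostaglandin E synthase, was lower in CD14-deficient than wild-type cells under LPS by -3.34 ± 0.34 (adjusted p = 0.0172) on the log2 scale. The next list was that of the store stress response (26 probe sets of 14 genes), which answers to emptied stores. With thapsigargin in CD14-deficient cells it showed 12 higher and 0 lower, where 3.68% of all tested probe sets were higher. It showed 7 lower in CD14-deficient than wild-type cells under LPS, where 2.55% of all were. In wild-type cells it showed 3 higher and 1 lower with LPS and 0 called with thapsigargin. Ddit3, its stress factor CHOP, had 5108 and 4915 in CD14-deficient cells and 5645.5 and 4816 in wild-type cells with thapsigargin, 479 and 1102 in CD14-deficient cells and 3545 and 3223 in wild-type cells with LPS alone, and 447 in CD14-deficient cells and 464.5 in wild-type unstimulated cells. Wild-type cells with LPS alone were thus already well above the unstimulated arrays, and both CD14-deficient arrays with LPS alone were below both of theirs.

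Leaving out 1 array at a time, the calls of members for LPS in wild-type cells numbered 26 without either CD14-deficient LPS array, where 41.1% of all tested probe sets were called. They numbered 1 without any of the 4 thapsigargin arrays, where 2.18% to 2.37% of all were called, although those arrays do not enter the comparison and the log2 change of Fgr was then -3.58 or -3.49. They numbered 0 without the wild-type LPS 48 h array and 4 without the 60 h array, where 0.489% and 5.49% of all were called in that order. For LPS in CD14-deficient cells, the genotypes under LPS, and thapsigargin in CD14-deficient cells, the counts were 6 to 19 without a CD14-deficient LPS array, where 12.7% to 41.2% of all were called, and 0 without any other, where 0.00% to 0.481% were. The members' counts thus moved with those over all probe sets.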

How the data were processed

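RNA of 10 cultures was hybridised to single-colour Affymetrix arrays. The deposited values are a linear intensity per probe set, MAS5 signals made by the authors per the submitters' processing notes; no version or target is stated in the labels. Each array was scaled to a common 2% trimmed mean of 509 (deposited means differed by up to 1.25 times), floored at 13.4 (the 25th percentile) and taken to log2. Of 22690 probe sets, 20380 had 1 gene symbol in the platform annotation, 691 had several and 1619 none, 64 controls included. All 56 member probe sets matched by Entrez ID. limma 3.58.1 in R 4.3.3 fitted 6 levels of genotype and treatment and a time term over 11649 probe sets, with Benjamini-Hochberg adjustment within a comparison. The code was run on simulated data with independent noise on each array. Those data held no departure of single arrays like that of the low-18S arrays, so they do not test this design. A member is given array by array where a probe set passed at 0.05 or was 2-fold apart at both times, and up to 3 called genes of each other list were eligible to be named. The members and lists were chosen with earlier results of these data known. Alternatives are given in the closing section.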

Additional observations from a re-analysis of the deposited data

Results flagged for a closer look

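For 6 probe sets the change with thapsigargin had 1 sign at both times in CD14-deficient cells and the opposite sign at both times in wild-type cells. They are 14.3% of the 42 tested, against 12.6% of all 11649 tested probe sets with such signs. The log2 effect in CD14-deficient minus that in wild-type cells was -0.69 for Nfatc1, -0.70 for Camk2g (1423941_at), -1.68 for Camkk2 (1424475_at), -1.0 for Plcg2, -0.64 for Ppp3r1 (1433591_at) and 0.33 for Stim1 (1448320_at). The first 5 were lower with thapsigargin in CD14-deficient cells and higher in wild-type cells, and Stim1 went the other way. The interaction was tested in limma for each, and none of the 6 passed (adjusted p of 0.213 for Camkk2 to 0.666 for Stim1). With 1 array a side at each time, opposite signs have no replicate check.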

How the results depend on the processing

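Over the alternatives run, 0 of 22 values followed for the members (called, or 2-fold at both times) changed sign. Of 21 values followed for some of the named genes of other lists, 0 changed sign. In the order LPS in CD14-deficient cells, LPS in wild-type cells, genotypes under LPS, thapsigargin in CD14-deficient and thapsigargin in wild-type cells, limma called 1, 10, 2, 2 and 0 members. That was of 42 tested, where 2.94%, 14.9%, 4.78%, 6.71% and 0.00% of all probe sets were called. Without the filter the counts were 2, 6, 1, 1 and 0 of 56, where 2.49%, 5.99%, 0.667%, 0.972% and 0.0491% of all were called. With signal required on all arrays they were 0, 7, 0, 0 and 0 of 29, where 1.10%, 10.6%, 3.44%, 4.91% and 0.00% of all were. With 1 probe set for each gene they were 2, 5, 2, 1 and 0 of 23, where 4.07%, 16.8%, 5.38%, 6.63% and 0.0535% of all were. Deposited values without scaling gave 1 between genotypes (2.91% of all) and 1 for thapsigargin in CD14-deficient cells (4.84% of all). The fit with no floor gave 1 between genotypes (4.47% of all). Quantile normalization, a pseudocount of 16, no intensity trend and no time term each gave 2 for LPS in CD14-deficient cells (3.12% to 3.53% of all). Leaving out each stimulated array in turn gave 0 to 19, 0 to 26, 0 to 16, 0 to 12 and 0 to 6. Leaving out both low-18S arrays, chosen after seeing the data, gave 14, 31, 11, 17 and 9. These last counts rest on 1 array with LPS alone for each genotype, and no conclusion is drawn from them. Between genotypes with thapsigargin every alternative gave 0. The 48 and 60 h arrays were tied across conditions by the time term. Signals under the floor carry no order, so Ryr1, under it on 2 of 4 LPS arrays, and Camk4 have fitted changes that depend on the floor.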
